A study of Mus musculus with 4 samples.

Results

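A set of 40 genes of the endoplasmic reticulum (ER), chosen by symbol from the 28692 genes of the deposited gene table, was followed in single mouse microglia. The genes encode the machinery that takes new proteins into the ER, cuts their signal peptides, attaches sugars to them, folds them and removes those that fail, together with the sensors and factors that answer when this work falls behind. All 40 symbols were found. They were described by level and spread over libraries, by co-variation in single cells, and by their level in cells with few UMIs from ribosomal protein genes.

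The data were 4 single-cell RNA sequencing libraries, each from cortex and hippocampus of 1 male C57BL/6J mouse at P90 (n = 4). Every mouse had been injected with PBS (tail vein, 24 hours earlier per the labels, while the methods of the study state a different interval, which is therefore uncertain), and every brain was dissociated by cold Dounce homogenization, which is mechanical and uses no enzyme. Per the study's methods the cells were live CD45+/CD11b+ cells obtained by FACS, a gate that takes in microglia and also other myeloid cells. Per the same methods sorting of the last animal was interrupted by a clog, and its sample went back on ice before a repeat sort, with added time at room temperature. The study's supplement calls that animal Sample 4 and reports its dissociation signature almost only in that sample. The labels do not say which library came from that animal. By their labels all 4 libraries formed 1 group with no other treatment, genotype or age beside it, so the comparisons below are between kinds of cells within the same libraries.

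After filtering for cells with 400 or more genes and no more than 10% of UMIs from mitochondria, 13002 of 13138 cells remained, 2576 to 3692 per library, with 5841671 to 11267195 UMIs per library and a median of 1905 to 2936 UMIs per cell. A UMI count is the number of distinct captured RNA molecules of a gene, and CPM is that count scaled to 1e+06 UMIs of a library or of a range of cells. Because 1 molecule gives 1 tag near its 3′ end, CPM was set beside each other between genes without scaling by length. How completely the molecules of each gene were captured and counted was not tested, so levels of different genes compare captured molecules only. The libraries shared 84 cell barcodes and differed from each other by more than sampling noise. The 9 microglial markers were abundant, at 37872 to 39212 summed CPM, whereas neutrophil and erythroid markers were at 0. Of the other cell type markers, those of B and plasma cells, macrophages and astrocytes were highest, at means of 363, 271 and 245 summed CPM. Replicate 4 stood apart in immediate early genes, which are induced within minutes by stimulation of a cell, with 2665 summed CPM against 1025 to 1187 in the other replicates. Values that rest on replicate 4 are therefore also given without it.

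Proteins bound for secretion, for lysosomes or for the cell surface enter the ER through the Sec61 channel, helped by Sec62, Sec63 and the translocon-associated protein complex (Ssr1 to Ssr4), and lose their signal peptide to signal peptidase (Spcs1 to Spcs3). The oligosaccharyltransferase complex adds N-linked glycans, and chaperones such as BiP (Hspa5), GRP94 (Hsp90b1), calreticulin (Calr) and calnexin (Canx) fold the chain while protein disulfide isomerases (Pdia3, Pdia4, Pdia6, P4hb) set its disulfide bonds. Unfolded protein activates IRE1 (Ern1), ATF6 (Atf6) and PERK, which raise ER chaperones through the ER stress response element (ERSE) and, through ATF4, the factor CHOP (Ddit3). Microglia are phagocytes rich in lysosomal and secreted proteins, which pass through the ER.

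The ERSE is a known feature of ER chaperone promoters, and the promoters that hold it are shown because these chaperones are the members to which the following results most often return. Promoters were the RefSeq windows of GRCm38.p6 from 250 bases before to 50 bases after a gene's start, searched on both strands, and 32 of the 40 members had one (not Sec61a1, Ssr2, Spcs3, Ostc, Manf, Erlec1, Atf6 and Atp2a2). The element was present in 5 of the 32 (15.62%), against 37 of all 27025 genes with a window (0.1369%). It was found in Hspa5 (chr2:34772020-34772048, plus strand), Calr (chr8:84847070-84847098, minus strand), Canx (chr11:50325795-50325823, minus strand), Pdia6 (chr12:17266486-17266514, plus strand) and at 2 places in Hsp90b1 (chr10:86705633-86705661 and chr10:86705528-86705556, minus strand). The related ERSE-II was found in 1 member, Herpud1 (chr8:94386368-94386396, plus strand), and in 12 of all genes (0.0444%). Each line gives 29 bases 5′ to 3′ on the strand of its gene, with the fixed letters of the element in capitals. In Calr and at the nearer site of Hsp90b1 the element lies on the opposite strand and reads as its reverse complement.
Hspa5: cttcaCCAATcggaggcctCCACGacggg
Calr: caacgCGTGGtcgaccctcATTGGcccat
Canx: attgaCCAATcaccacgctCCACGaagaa
Pdia6: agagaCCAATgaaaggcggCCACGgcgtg
Hsp90b1, far site: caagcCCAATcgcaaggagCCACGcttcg
Hsp90b1, near site: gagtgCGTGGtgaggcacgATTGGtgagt
Herpud1: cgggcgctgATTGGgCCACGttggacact

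The far end of the element lay 65 bases before the RefSeq start in Hspa5, 98 in Pdia6, 145 in Canx and 162 in Calr, and 212 and 107 bases before it at the sites of Hsp90b1. GENCODE M21 places the start of Hspa5 further upstream (chr2, 34771970), so that its element lies inside that gene model. The 5 letters CCACG alone were common, in 24 of 32 members (75%) and 35.48% of all genes. Neither the core of the XBP1 site (TGACGTGG, 0.7142% of all genes) nor the ATF4 element (TGATGNAAT, 1.084% of all genes) occurred in a member's window. Of 73 other ER genes, 54 had a window and 3 of these held the ERSE (Dnajc3, Creld2 and Syvn1). A match is a match of letters and was not tested as a binding site.

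The 40 members together supplied 1.12% of all UMIs. Their summed level was 11604, 11550, 10764 and 10757 CPM in replicates 1 to 4, a mean of 11169 ± 472 CPM (SD, n = 4), and no library stood apart. Members spanned levels from 5.75 CPM (Ern1) to 982 CPM (Pdia3), 28 of 40 had a mean of at least 100 CPM, and the 10 most abundant supplied 57.6% of the members' UMIs. In the order of mean levels, 27 of the 39 pairs of neighbours had overlapping ranges over the libraries, so much of the order between neighbours lies within the spread of the libraries. On the log2 scale the median SD between libraries was 0.08 for the members and 0.11 for all genes with a mean of at least 10 CPM. These values were not matched for level, and low counts have a larger SD, so they do not show that the members were steadier.

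**Figure D1:**
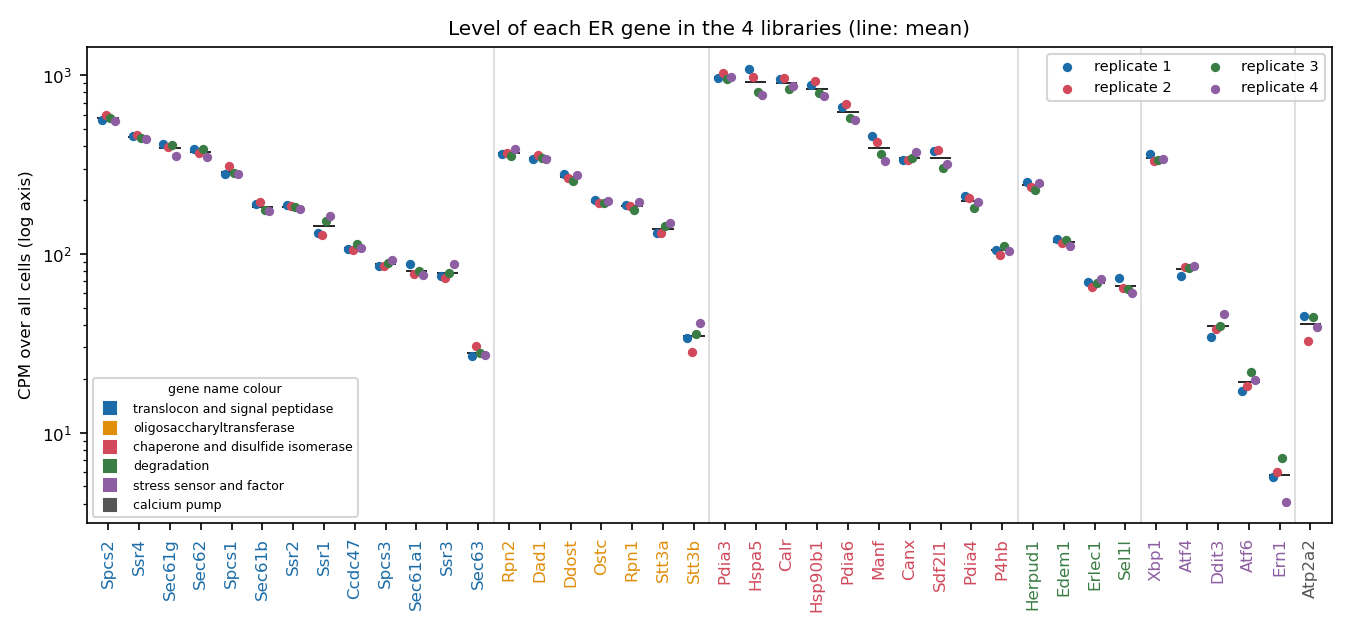
Level of each of the 40 ER genes over all cells, in CPM on a log axis, with 1 point per library and a line at the mean of the 4 libraries. Genes are ordered by role and then by level. Chaperones and disulfide isomerases reach 982 CPM, and Ern1 is lowest at 5.75 CPM.

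Chaperones and disulfide isomerases were the most abundant role, with 10 genes and 50.5% of the members' UMIs. Hspa5 was at 1087, 973, 807 and 776 CPM in replicates 1 to 4. Calr, a lectin chaperone that also binds calcium, was at 957, 961, 835 and 865 CPM. Manf, a small secreted ER protein, was at 457, 420, 364 and 330 CPM. All 3 genes were higher in replicates 1 and 2 than in replicates 3 and 4, without overlap. So were Hsp90b1, Pdia4, Pdia6 and Sdf2l1, which was at 374, 381, 304 and 320 CPM. Outside the role, Sec61b, Ssr2 and Ssr4 split in the same direction. This split was noticed in these same values, and the share of all genes that separate in this way was not computed. Pdia3 overlapped between these libraries (969, 1033, 945 and 980 CPM), and Canx ran the other way, at 334, 333, 345 and 369 CPM. Of other roles, Ccdc47, Ssr1, Ssr3, Spcs3, Stt3a, Stt3b, Atf6 and Ddit3 also ran the other way without overlap. The sum over the role was split, with 6027 and 6022 summed CPM in replicates 1 and 2 and 5261 and 5262 CPM in replicates 3 and 4, and so was that of 29 cytosolic chaperones, with 7965 and 8069 against 6658 and 6432 CPM. These libraries belong to 1 group, so no label separates them.

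The translocon and signal peptidase genes supplied 26.6% of the members' UMIs, led by Spcs2 (573 ± 19.6 CPM, SD, n = 4), and their sum varied little (2884 to 3011 CPM). Within the Sec61 channel the small subunit genes exceeded the pore subunit in captured molecules, with Sec61g at 392 ± 26.1, Sec61b at 184 ± 10.6 and Sec61a1 at 80.6 ± 5.26 CPM. The ranges of the 3 subunits did not overlap. Oligosaccharyltransferase genes supplied 13.8%, and of its alternative catalytic subunits Stt3a (138 ± 9.02 CPM) was above Stt3b (34.7 ± 5.35 CPM) in every library.

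ER-associated degradation genes supplied 4.41% of the members' UMIs, and Herpud1, a membrane protein that helps assemble the degradation complex, led them at 253, 237, 227 and 247 CPM. Stress sensors and factors supplied 4.37%, and most of this was Xbp1, whose mRNA is spliced by IRE1, at 361, 331, 334 and 341 CPM. Atf4 was at 74.8, 84.8, 83.5 and 85.5 CPM and Ddit3, encoding the pro-apoptotic factor CHOP, at 34.3, 38.1, 39.5 and 46.1 CPM. Replicate 4 was highest in both of these low genes, in Atf4 by a small margin, and in neither did it stand apart. Of the 39 members with a mean of at least 10 CPM, replicate 4 was highest in 11 and lowest in 13. A count of 3′ tags does not separate spliced from unspliced Xbp1. The calcium pump Atp2a2 (SERCA2), which fills the ER with calcium, supplied 0.360%.

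A library was called apart where its gap to the nearest other library, divided by the range of all 4, exceeded the critical value of Dixon's range test at the 95% level. Of the 39 members with a mean of at least 10 CPM, 2 had such a library, a share close to the 4.62% of all 7656 genes of that level. Dad1, a small oligosaccharyltransferase subunit, was at 339, 358, 342 and 341 CPM. Spcs1, a signal peptidase subunit, was at 278, 309, 283 and 281 CPM. In both, replicate 2 was the high one, by margins that were small beside the level.

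To compare kinds of cells, cells were divided by the percentage of their UMIs in 109 ribosomal protein genes, none of which is a member. Cells under 3%, called here ribosomal-poor, were rare, with 56, 31, 47 and 53 cells in replicates 1 to 4 (187 in all), against 10562 cells of 5% to 10%, the bulk of each library. Few cells lay at the border, with 3 to 8 cells per library between 2.5% and 3% and 4 to 9 between 3% and 3.5%. Every ribosomal-poor cell held at least 3 UMIs of microglial markers.

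Ribosomal-poor cells differed from the other cells in more than ribosomal genes, and these values bear on each result that follows. Their median was 950 to 1233 UMIs and 482 to 609 genes per cell, near the filter of 400 genes, against 1899 to 2924 UMIs and 1023 to 1406 genes in cells of 5% to 10%. Their median mitochondrial share was 1.47% to 2.17% against 1.10% to 1.31%, and the nuclear RNA Malat1 was at 72437 against 55558 CPM. Of 12 transcripts of the mitochondrial genome that were tested, 10 were higher (adjusted p under 0.05, edgeR's quasi-likelihood test), with a median log2 fold change of 0.70. Markers of microglia were also higher, at 60728 to 65030 summed CPM against 38735 to 39709, and 7 of 9 passed the test, among them P2ry12 (0.68) and Tmem119 (0.44), but not Cx3cr1 (0.22, adjusted p = 0.056) or the transcription factor Sall1, at 89.8 against 159 CPM (−0.76, adjusted p = 0.093). Macrophage markers were at 202 to 518 CPM in ribosomal-poor cells and 231 to 280 CPM in the others, with 3 of 7 detected in ribosomal-poor cells. Of these Stab1, a scavenger receptor that made up most of the sum, was higher (345 against 229 CPM, adjusted p = 0.011, edgeR) and Mrc1 was at 4 UMIs (15.2 against 7.99 CPM, adjusted p = 0.47, edgeR). Cd163, Pf4, Lyve1 and F13a1 were at 0 in ribosomal-poor cells, but were so low in the others (0.959 CPM for Cd163) that these zeros say little at this depth. Markers of neurons and proliferating cells were also at 0, against only 1.78 and 4.68 CPM. MHC class II genes were at a mean of 196 against 91.6 CPM, and at 457 against 191 CPM in replicate 4. Mean astrocyte markers were at 289 against 249, endothelial at 43.9 against 24.5 and oligodendrocyte at 62.5 against 56.6 CPM. B and plasma cell markers were lower, at 198 against 367 CPM. The part of cell depth, RNA quality and cell identity in the member results was not tested apart from the settings named below.

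The members took a larger share of the RNA in ribosomal-poor cells in each of the 4 libraries. Their summed level was 18133, 18915, 16836 and 17392 CPM there and 11862, 11669, 10789 and 10784 CPM in cells of 5% to 10%. The lowest ribosomal-poor value was above the highest value of the other range, and the fold was 1.58 ± 0.0438 (SD, n = 4), or 1.49 ± 0.0446 with ribosomal protein genes left out of all totals. Cells between 3% and 5% had 12527 ± 594 CPM and cells over 10% had 9767 ± 742 CPM, and the values of the 4 libraries did not overlap between any of the ranges. The cells over 10% also held markers of other myeloid cells, with 240 summed CPM of monocyte markers against 7.41 CPM in cells of 5% to 10%. With every cell thinned to 1000 UMIs (cells with fewer left out, which kept 23, 26, 31 and 37 ribosomal-poor cells), ribosomal-poor cells held a mean of 17.4, 18.8, 16.0 and 17.1 member UMIs per cell, against 11.8, 11.6, 10.7 and 10.7 in cells of 5% to 10%.

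**Figure D2:**
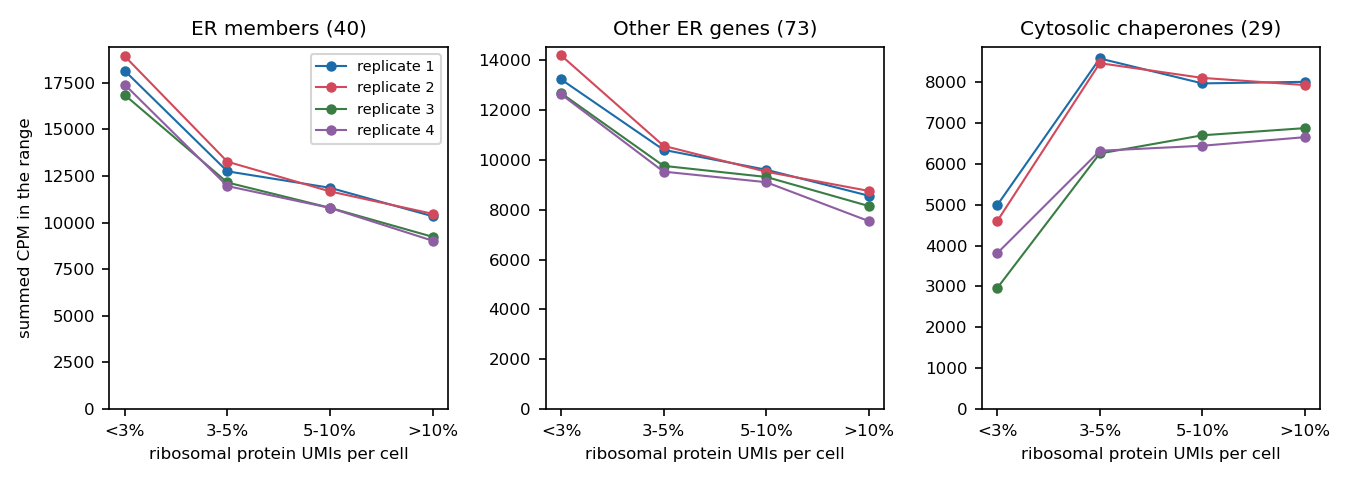
Summed CPM of the 40 ER genes (left), 73 other ER genes (middle) and 29 cytosolic chaperones (right) in cells grouped by the percentage of UMIs in ribosomal protein genes, with 1 line per library and axes from 0. Both ER lists are highest under 3% in every library, whereas cytosolic chaperones are lowest there.

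Each gene was then tested between the summed counts of both ranges, with the library as a block, and called at a Benjamini-Hochberg adjusted p under 0.05 over the 7429 genes tested. Of 39 members tested (Ern1 was below 10 CPM, with 1 UMI in ribosomal-poor cells), 22 were higher in ribosomal-poor cells, where 5.2% of all genes were, and 1 was lower, where 10.5% of all genes were. With the ribosomal protein genes that set the ranges left out of the background, these shares were 5.26% and 9.45%. The median log2 fold change was 0.73 over the members and −0.22 over all genes tested. The log2 fold change was above 0 for 35 of 39 members and for 40.9% of all genes. In 20 members every ribosomal-poor value lay above every other value (7.05% of all genes), and in 1, Sec61b, every value lay below (22.5% of all genes). The ribosomal-poor sums held 41978 to 65604 UMIs per library, so a member at low level rested on a handful of UMIs, and a missed call does not show that its level was equal. With cells thinned to 1000 UMIs, 3 members were called higher (Hspa5, Calr and Canx), where 0.581% of all genes were. With the thinned sums scaled by their totals instead of TMM, 11 members and 2.01% of all genes were called higher. Against cells of 5% to 10% of matched depth, 17 members and 3.43% of all genes were. Without a filter on low values, 13 of 40 members and 1.09% of all genes were. Among genes with a mean of at least 50 CPM, 26 of 35 members and 20.8% of all genes were, so the background share depends on level.

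**Figure D3:**
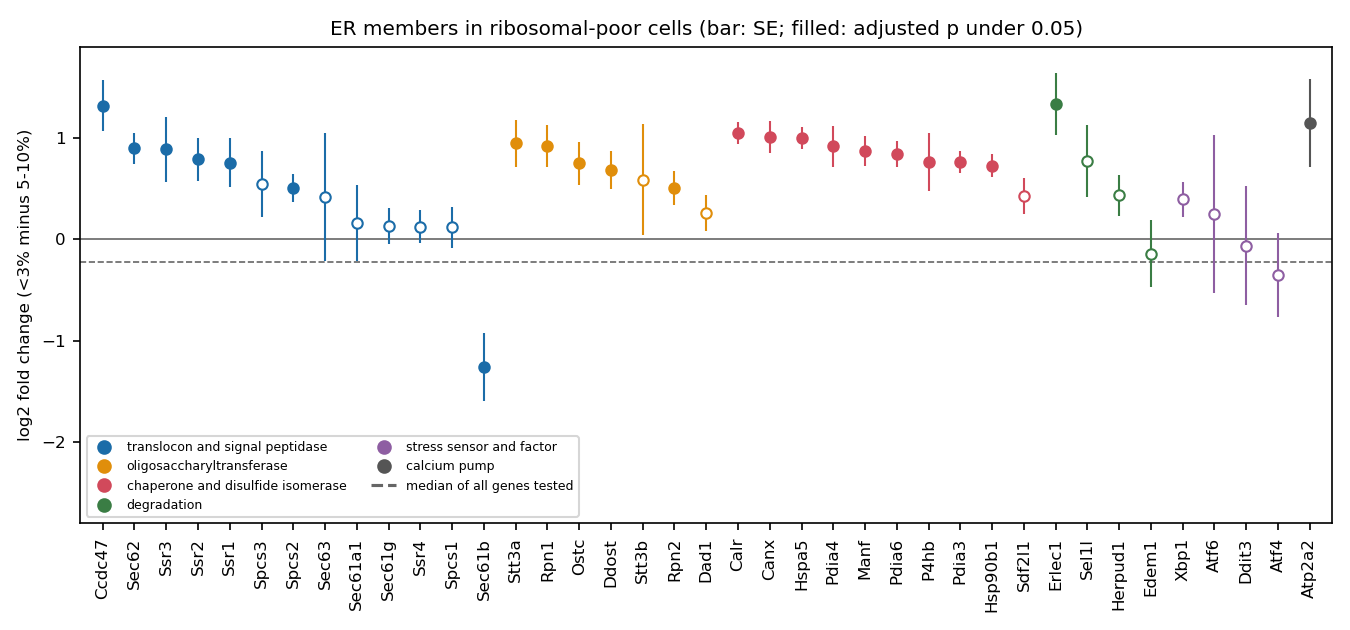
Log2 fold change of each of the 39 tested members, ribosomal-poor cells minus cells of 5% to 10%, with its standard error, grouped by role and filled where the adjusted p (edgeR) was under 0.05. The dashed line is the median of all genes tested (−0.22). Filled points lie above 0 except for Sec61b at −1.26.

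Of 10 chaperones and disulfide isomerases, 9 were higher. They were also the most abundant role, and the difference between roles was not tested. Calr was at 1656, 2311, 1617 and 1860 CPM in ribosomal-poor cells and 982, 966, 840 and 866 CPM in cells of 5% to 10% (log2 fold change 1.05, SE 0.107, adjusted p = 5.73e-21, edgeR). Hspa5 was at 2162, 1882, 1397 and 1768 CPM against 1135, 996, 809 and 774 CPM (1.004, SE 0.107, adjusted p = 7.26e-19, edgeR). Canx, the membrane-bound partner of Calr, was at 785, 596, 662 and 655 CPM against 332, 336, 343 and 369 CPM (1.01, SE 0.155, adjusted p = 2.82e-09, edgeR). In these 3 genes all ribosomal-poor values lay above all others. The folds of the means were 2.04 for Calr, 1.94 for Hspa5 and 1.95 for Canx, and the fold varied between libraries. In the bulk cells Hspa5 and Calr were higher in replicates 1 and 2 than in replicates 3 and 4.

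Pdia4 was at 366, 405, 368 and 351 CPM against 216, 209, 185 and 197 CPM (0.92, SE 0.201, adjusted p = 9.81e-05, edgeR). Manf was at 854, 762, 607 and 610 CPM against 469, 428, 366 and 331 CPM (0.87, SE 0.151, adjusted p = 2.35e-07, edgeR). Neither gene had overlapping ranges. Manf overlaps Rbm15b on the same strand, so its count is less certain. Pdia6, Pdia3 and Hsp90b1 were also higher (0.84, 0.77 and 0.73), and P4hb (0.77, adjusted p = 0.047, edgeR) was at the threshold, with replicate 4 lower in ribosomal-poor cells, and was not called without replicate 1, 2 or 3 (adjusted p = 0.36, 0.052 and 0.41, edgeR). Sdf2l1, a partner of ER chaperone complexes, was not called. It was at 575, 691, 349 and 290 CPM against 379, 389, 310 and 325 CPM (0.43, adjusted p = 0.076, edgeR), higher in 3 of 4 libraries and with overlapping ranges. It was called higher in 6 of 20 alternatives, among them without replicate 4 (0.49, adjusted p = 0.0496, edgeR) and against cells of matched depth (0.87, adjusted p = 0.0038, edgeR).

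**Figure D4:**
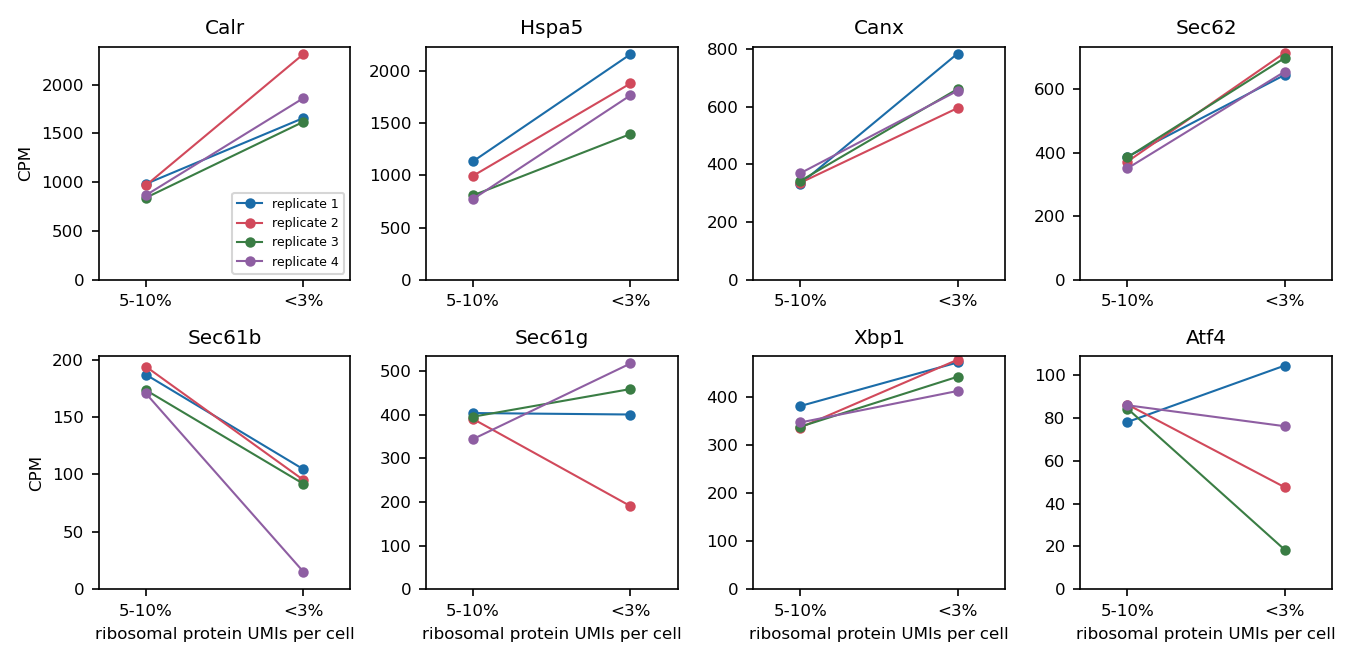
CPM of 8 members in cells of 5% to 10% and in cells under 3% ribosomal protein UMIs, with 1 line per library and axes from 0. Calr, Hspa5, Canx and Sec62 are higher in ribosomal-poor cells of every library, Sec61b is lower in every library, and the lines of Sec61g and Atf4 cross.

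Of 7 oligosaccharyltransferase genes 5 were higher. Rpn1, the scaffold subunit ribophorin I, was at 296, 405, 368 and 335 CPM against 197, 188, 174 and 196 CPM (0.92, SE 0.207, adjusted p = 0.000168, edgeR). Stt3a, the catalytic subunit that works beside the translocon, was at 209, 167, 221 and 412 CPM against 135, 132, 144 and 146 CPM (0.95, SE 0.235, adjusted p = 0.000851, edgeR). Both were higher without overlap, but the value of Stt3a in replicate 4 was far above its other values, and without replicate 4 its log2 fold change was 0.49 (adjusted p = 0.33, edgeR). Ostc, Ddost and Rpn2 were called (0.75, 0.69 and 0.51) and also lost their calls without replicate 4 (adjusted p = 0.063, 0.17 and 0.39, edgeR), and Rpn2 also without replicate 1 (0.054). Stt3b, with 11 UMIs in ribosomal-poor cells, and Dad1 were not called. Dad1 was at 366, 453, 478 and 335 CPM against 343, 359, 343 and 341 CPM (0.26, adjusted p = 0.39, edgeR).

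The translocon and signal peptidase genes were divided, with 6 of 13 higher and 1 lower. Sec62, which serves post-translational entry and also autophagy of the ER, was among the called genes, at a log2 fold change of 0.90 (SE 0.154, adjusted p = 1.59e-07, edgeR). Ccdc47, a calcium-binding protein of the translocon, was at 157, 214, 239 and 396 CPM against 106, 102, 114 and 103 CPM (1.32, SE 0.25, adjusted p = 3.53e-06, edgeR). Its ranges did not overlap, but it overlaps Strada on the same strand, and without replicate 4 its log2 fold change was 0.84 (adjusted p = 0.054, edgeR). Ssr1, Ssr2, Ssr3 and Spcs2 were also higher, at 0.51 to 0.89. Ssr1 lost its call without replicate 1, 2 or 4 (adjusted p = 0.052, 0.095 and 0.28, edgeR), Ssr3 without replicate 1, 3 or 4 (0.18, 0.28 and 0.073) and Spcs2 without replicate 3 (0.097).

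Sec61b was the member that went the other way. It was at 105, 95.3, 91.9 and 15.2 CPM in ribosomal-poor cells, 16 UMIs in all, and at 187, 194, 174 and 171 CPM in cells of 5% to 10% (−1.26, SE 0.335, adjusted p = 0.00225, edgeR). Every ribosomal-poor value was below every other value, and replicate 4, which had 1 UMI, stood apart from the other 3. The call held without replicate 4 (−0.98, adjusted p = 0.042, edgeR), and was lost with thinned cells scaled by their totals (−1.14, adjusted p = 0.14, edgeR). The other subunits of the same channel were not called. Sec61g, the other small subunit, was at 401, 191, 460 and 518 CPM against 404, 391, 396 and 345 CPM (0.13, adjusted p = 0.71, edgeR), and Sec61a1, with 19 UMIs in ribosomal-poor cells, had a log2 fold change of 0.16 (adjusted p = 0.84, edgeR). The difference between Sec61b and the other subunits was not tested. Ssr4 and Spcs1, which also encode small subunits, were not called (0.13 and 0.12), and Spcs1 was at 279, 381, 276 and 305 CPM against 281, 312, 286 and 282 CPM.

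Of 4 degradation genes only Erlec1, a lectin that binds trimmed glycans, was called. It was at 69.7, 191, 276 and 152 CPM against 68.2, 64.3, 67.2 and 73.9 CPM (1.34, SE 0.308, adjusted p = 0.000243, edgeR), on 37 UMIs in ribosomal-poor cells. It was close to level in replicate 1 and higher in the others, and without replicate 3 its log2 fold change was 0.97 (adjusted p = 0.083, edgeR). Herpud1 was at 296, 453, 312 and 259 CPM against 258, 242, 226 and 249 CPM (0.44, adjusted p = 0.14, edgeR), higher without overlap but not called. Edem1 and Sel1l were not called. The pump Atp2a2 was at 139, 47.6, 36.8 and 107 CPM against 43.3, 33.4, 44.7 and 38.6 CPM (1.15, SE 0.432, adjusted p = 0.049, edgeR), on 19 UMIs and with overlapping ranges, and without replicate 1 or 4 it was not called (0.81 and 0.87, adjusted p = 0.45 and 0.35, edgeR).

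None of the 4 stress sensors and factors tested was called, where 22 members were, at an adjusted p under 0.05 (edgeR). Xbp1 was at 471, 476, 441 and 412 CPM against 380, 336, 337 and 346 CPM (0.40, SE 0.175, adjusted p = 0.11, edgeR), higher in 4 of 4 libraries without overlap. It was called in 2 of 20 alternatives, with a filter at a mean of 50 CPM (0.52, adjusted p = 0.011, edgeR) and with at least 200 genes per cell (0.50, adjusted p = 0.011, edgeR). Atf4 was at 105, 47.6, 18.4 and 76.2 CPM against 78.2, 86.4, 84.5 and 86.0 CPM (−0.35, adjusted p = 0.66, edgeR). Ddit3 was at 52.3, 23.8, 73.5 and 0 CPM against 32.5, 38.3, 40.4 and 44.4 CPM (−0.06, adjusted p = 0.97, edgeR). Atf4 and Ddit3 had 14 and 8 UMIs in ribosomal-poor cells and scattered on both sides of the bulk cells. Atf6 had 5 UMIs there, with 0 in replicates 2 and 3 (0.25, adjusted p = 0.88, edgeR). At this depth a change as large as that of the chaperones would not have been resolved in Ddit3 (SE 0.585) or Atf6 (SE 0.778). In Atf4 (SE 0.411) it might also have been missed, so the missing calls do not set these genes apart from the chaperones. At an unadjusted p under 0.05, 1 of the 4, Xbp1, would have passed.

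Other lists placed the members. Of 69 other ER genes tested, 19 were higher and 3 lower, with a median log2 fold change of 0.62. The largest rises were in Dnajb9 and Dnajb11, ER co-chaperones of BiP (1.33 and 1.16), and in Emc10, of the ER membrane protein complex (1.01). The genes that fell were Srp14 and Srp9, of the signal recognition particle (−1.50 and −1.40), and Emc6 (−1.38), with 13, 13 and 8 UMIs in ribosomal-poor cells. Of 27 cytosolic chaperones tested, 0 were higher and 9 lower, with a median of −0.69. Hspa8, the constitutive HSP70, fell by 0.65 on the log2 scale (adjusted p = 8.13e-08, edgeR), whereas its ER relative Hspa5 rose. Of 8 immediate early genes, 0 were higher and 3 lower, with a median of −0.78.

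The members co-varied only weakly from cell to cell. Pearson's r was computed within each library over cells thinned to 1000 UMIs (2491 to 3669 cells per library) and averaged over libraries, as a description, since the cells of a library share its depth and its mouse. The median r over 741 pairs of members was 0.00538, against −0.000306 for pairs of a member and another gene, and 69.4% of member pairs were above 0 against 48.7%. Of the 741 pairs, 23 had r over 0.05 and 1 over 0.1, Hspa5 and Pdia6 (0.114, 0.108, 0.101 and 0.0794 in the libraries). At 1000 UMIs per cell most members had 0 or 1 UMI, so a low r says little of a pair.

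Against the sum of the other members, chaperones led. The mean r was 0.177 for Hspa5, 0.142 for Pdia6, 0.138 for Sdf2l1, 0.132 for Manf, 0.126 for Pdia3, 0.125 for Calr and 0.121 for Hsp90b1, and in each of these genes it was above 0.08 in each library. Pdia4 (0.0859), Canx (0.0656) and P4hb (0.0340), of the same role, lay below the signal peptidase gene Spcs2 (0.0884). Sec61a1, Atf4, Edem1, Atf6 and Dad1 were between −0.01 and 0.01. Chaperones and disulfide isomerases supplied 50.5% of the members' UMIs and so weigh most in the sums. Low counts damp r, and the order of the genes was not tested apart from level. Within cells of 5% to 10% alone the value was 0.159 for Hspa5 and 0.131 for Pdia6. The variance of the summed member UMIs over thinned cells was 1.52, 1.62, 1.49 and 1.43 times that of binomial sampling, and from the 10th to the 90th percentile of cells the sum ran from 6 or 7 to 16 or 17 UMIs.

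**Figure D5:**
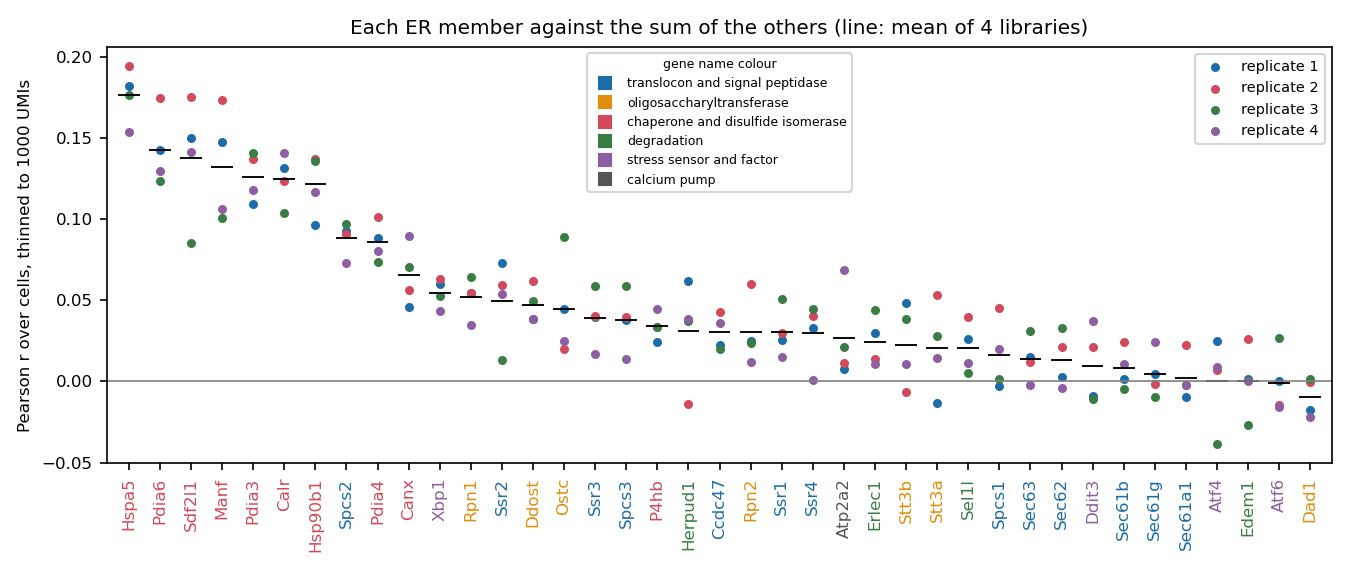
Pearson's r over cells between each member and the sum of the other members, with every cell thinned to 1000 UMIs, 1 point per library and a line at the mean. Most chaperones lie at the left, led by Hspa5 at 0.177, and many translocon and stress genes lie near 0.

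Among the 10 genes outside the set whose UMIs followed the summed members most closely over thinned cells were, in order of mean r over 4 libraries, Ctsd (0.148), Fcrls (0.106), Cd9 (0.0928), Olfml3 (0.0834), Lgmn (0.0818), C1qa (0.0809), Creld2 (0.0784), Sparc (0.0696) and C1qc (0.0690). Ctsd and Lgmn encode lysosomal proteases, C1qa and C1qc subunits of secreted complement, and Creld2 an ER protein. Low counts damp r, which favours abundant genes in this ranking. In cells of 5% to 10% C1qa was at 11869 CPM and Ctsd at 11304 CPM, while Creld2 was at 96.5 CPM. The ranking was not tested apart from level. In cells of 5% to 10% alone r was lower, at 0.0935 for Ctsd and 0.0734 for Fcrls. Ctsd was also higher in ribosomal-poor cells, at 19178 against 11304 CPM, and so was Fcrls, at 5082 against 2891 CPM.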

How the data were processed

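Per the labels and the study's methods, the authors made 10x Genomics 3′ libraries (second version of the kit) and counted UMIs with Cell Ranger 2.2.0 on mm10 (GRCm38). The deposited values were raw UMI counts per gene and cell, whole numbers without normalization. Cell Ranger had called the cells and no doublet caller was run here. The filter on genes and mitochondrial UMIs removed 136 barcodes. Replicates are separate mice and are numbered in the order of the sample titles, to which the labels give no meaning.

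The members and lists were chosen with earlier results of these data known. Counts were summed per library, and per library and range of ribosomal share, and given as CPM of all genes. For the ranges, the 8 sums were fitted with edgeR 4.0.16 (R 4.3.3, TMM scaling, quasi-likelihood test, two-sided) with library as a block, since both sums of a library come from 1 mouse, over genes with a mean of 10 CPM, and adjusted by Benjamini-Hochberg. The test borrows its spread from all genes. With the library as a block, its p-values rest on the sampling noise of the UMI counts and on this borrowed spread. They reflect only in part how far a gene's own difference between the ranges varied over these 4 mice. They do not measure the spread in level between libraries. Each standard error (SE) was calculated back as the absolute log2 fold change divided by the square root of the test's F statistic. Spread over libraries was described with Dixon's range test at its 95% level and log2 values with a pseudocount of 1 CPM. Cells were thinned to 1000 UMIs with a fixed seed, which left out 23 to 85 cells per library. Scripts were tested on simulated data.

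By rule, values in every library are given for Hspa5, Calr, Sec61b, Xbp1, Atf4, Ddit3, Herpud1, Sdf2l1 and Manf, for the 10 called members with the largest absolute log2 fold change, and for members with a library apart. Also named are the 3 largest called changes in each direction among other ER genes, and the 10 genes most like the summed members, of which 1 is not reported here. Other members were named by role. Coordinates of genes are those of GENCODE M21 and promoters those of RefSeq, both on GRCm38. Alternatives were DESeq2 1.42.0, other scalings, filters, cell sets and ranges, thinning, no block and leaving out each library. The tests used Python 3.11.15, numpy 2.4.6 and scipy 1.17.1.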

Additional observations from a re-analysis of the deposited data

Results flagged for a closer look

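Of 106 values compared over the 4 libraries with Dixon's range test, 5 had a library apart, and chance gives about 1 in 20. Replicate 2 was high in Dad1 (a gap of 0.873 of the range) and in Spcs1 (0.848), by small margins beside the level. Replicate 4 was high in the summed immediate early genes (0.847), with 2665 CPM. Replicate 4 was low in Sec61b in ribosomal-poor cells (0.932), where it had 1 UMI against 4 to 6 in the others. Replicate 1 was low in the share of cells of 5% to 10% ribosomal UMIs (0.913), with 75.1% of its cells against 83.1% to 83.9%, and it had 20.2% of its cells above 10%.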

How the results depend on the processing

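In 20 alternative settings, 22 members called higher became 15 to 26, except for 13 with no filter on low values (of 40 tested), 3 with cells thinned to 1000 UMIs and 11 with thinned cells and totals of all genes without TMM. Of all genes, 3.18% to 20.8% were called higher in these settings (20.8% at a mean of 50 CPM), and 1.09%, 0.581% and 2.01% in the 3 exceptions. The member called lower, Sec61b, was called in 19 of the 20, and 0 were called with thinned cells and no TMM. Thinning removed cells under 1000 UMIs, and in the thinned sums the TMM factors were 1.02 to 1.29 for ribosomal-poor cells and 0.878 to 0.910 for the others, against 0.942 to 1.07 and 0.989 to 1.02 before thinning. Hspa5, Calr and Canx were called in every alternative, and 11 of the 23 called members in every one but the thinned ones. DESeq2 called 20. Calls gained were Sdf2l1 in 6 alternatives, Xbp1 in 2, and Herpud1 and Sel1l in 1 each, at a mean of 50 CPM. Without the replicate block, which pairs both sums of a library, 23 were called. Leaving out each replicate gave 15 to 20 (lowest without replicate 4), 1 lower throughout, a fold of the summed level of 1.57 to 1.60, a mean summed level of 11024 to 11306 CPM and a median correlation of 0.00479 to 0.00582. The fold was 1.49 with ribosomal protein genes left out of totals, 1.42 against cells of 3% to 5% and 1.69 against depth-matched cells. The summed level was 12142 CPM without ribosomal protein genes in the totals. At least 1000 genes per cell left 1 member with a library apart. The median correlation was 0.00871 at 2000 UMIs and 0.00414 in cells of 5% to 10%. The median log2 fold change of all genes was −0.22 with TMM, −0.27 with totals of all genes and no TMM, and −0.35 with ribosomal protein genes also left out of the totals. Where no value shows the cause, the cause was not tested. Depth-matched cells, cells without 3 or more UMIs of other types (17 higher), a mean of 50 CPM (26 higher of 35), at least 200 genes per cell (23 higher) and thinned cells without TMM were chosen after seeing the data. A filter of 1000 genes was not run between the ranges, since it left 0, 3, 0 and 2 ribosomal-poor cells.

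No called member changed sign. Of those not called, 10 did. With neither TMM nor ribosomal protein genes in the totals, Ssr4 was at −0.0018 and Spcs1 at −0.0044. With no filter, Sec61a1 was at −0.048, Sec61g at −0.077, Ssr4 at −0.083 and Spcs1 at −0.088. Leaving out each replicate, Sec61a1 ran from −0.46 to 0.41, Sec61g from −0.20 to 0.35, Sec63 from −0.20 to 0.79, Atf6 from −0.67 to 0.74 and Ddit3 from −0.66 to 0.43. At most 5% mitochondrial UMIs gave −0.080 for Sec61a1 and −0.058 for Atf6, and Atf6 was at −0.069 without macrophage, monocyte or MHC class II cells and at −0.0025 without cells of other types. Against 3% to 5%, Sec61a1 was at −0.23 and Stt3b at −0.028. Thinned, Sec61a1 was at −0.21, Sec61g at −0.096, Spcs1 at −0.34 (−0.037 without TMM), Dad1 at −0.29 and Stt3b at −0.058. Depth-matched, Edem1 was at 0.18, Atf6 at −0.31 and Ddit3 at 0.0017, and Ddit3 was at 0.12 with at least 200 genes per cell.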
